A study of Homo sapiens with 15 samples.

Results

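The 8 genes described here encode inhibitors of apoptosis and the adaptors that recruit some of them: the IAP genes BIRC2, BIRC3 and XIAP, the TRAF genes TRAF1 and TRAF2, the caspase-8 regulator CFLAR, and the antiapoptotic BCL2-family genes BCL2L1 and MCL1. They were chosen by name, with earlier results of these data known, as the rows of the deposited expression table with these symbols. Each symbol had 1 row among the 57905 genes listed. All 8 passed the filter on low values and were among the 17214 genes tested. Expression was measured by RNA sequencing in SW480, an established line of human colorectal cancer cells, which the labels class as intestinal epithelial, grown in DMEM with fetal bovine serum. Each of the 4 groups used here has 3 libraries. Control cells were wild type, carried no hairpin and received PBS. LPS cells were the same cells exposed to lipopolysaccharide at 1 µg/ml for 4 h. PINT shRNA1 cells stably carried, from a lentivirus, a short hairpin against the long non-coding RNA PINT and were not given LPS, and PINT shRNA1+LPS cells carried that hairpin and received LPS at the same concentration for the same time. No group with a non-targeting hairpin is named, and the labels do not say whether the hairpin cells were a pool or a clone, so the hairpin's target, the vector and the selection of cells cannot be told apart. They do not say either whether the 3 libraries of a group came from separate cultures, so the p-values reflect only how far these libraries differ, which may be technical. The comparisons ask how these genes differ with LPS, with the hairpin label, and whether the LPS response differs between cells with and without it.

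Lipopolysaccharide is sensed at the cell surface by Toll-like receptors and activates the transcription factor NF-kB, which switches on inflammatory genes and, with them, genes that protect the cell from death. BIRC3 (cIAP2) and its close relative BIRC2 (cIAP1) are ubiquitin ligases that bind TRAF proteins at the TNF receptor complex and keep signalling on the side of survival, and XIAP inhibits caspases directly. TRAF2 is the adaptor that brings the cellular IAPs to the receptor, and TRAF1 binds TRAF2 and lacks the RING domain found in its relatives. CFLAR (cFLIP) resembles caspase-8 without its protease activity and restrains it at death receptors, while BCL2L1 (BCL-XL) and MCL1 guard the mitochondrial outer membrane against BAX and BAK. BIRC3, TRAF1 and CFLAR are textbook NF-kB target genes, and MCL1 is known for a short-lived protein whose amount is set largely after transcription.

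The sequences before the transcription start were examined for the NF-kB consensus. RefSeq promoters of build GRCh38.p14 were at hand for 7 of the 8 genes, in 16 windows, each of the 250 bases before a start. MCL1 is not among them. Each window was searched on both strands for the consensus kappa-B site, a motif of 10 bases. The 4 windows below are 1 each for BIRC3 and CFLAR, the genes with a match, and the first windows of BIRC2, the neighbour and relative of BIRC3 on chromosome 11, and of TRAF1, for comparison. They lie at chr11:102317234-102317483 on the + strand (BIRC3), chr2:201118466-201118715 on the + strand (CFLAR), chr11:102346964-102347213 on the + strand (BIRC2) and chr9:120929172-120929421 on the − strand (TRAF1). Each is written 5′ to 3′ along the gene and ends at the base before the start, and capitals mark the matches.
BIRC3: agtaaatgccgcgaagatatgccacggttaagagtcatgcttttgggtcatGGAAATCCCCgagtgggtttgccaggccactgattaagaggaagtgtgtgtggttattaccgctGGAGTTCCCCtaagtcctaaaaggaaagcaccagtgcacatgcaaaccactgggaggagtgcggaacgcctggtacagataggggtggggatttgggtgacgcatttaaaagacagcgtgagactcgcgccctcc
CFLAR: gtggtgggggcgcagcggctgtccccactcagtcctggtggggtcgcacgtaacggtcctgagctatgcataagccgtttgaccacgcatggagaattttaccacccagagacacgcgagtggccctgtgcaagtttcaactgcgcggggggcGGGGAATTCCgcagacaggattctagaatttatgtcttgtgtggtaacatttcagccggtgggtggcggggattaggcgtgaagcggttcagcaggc
BIRC2: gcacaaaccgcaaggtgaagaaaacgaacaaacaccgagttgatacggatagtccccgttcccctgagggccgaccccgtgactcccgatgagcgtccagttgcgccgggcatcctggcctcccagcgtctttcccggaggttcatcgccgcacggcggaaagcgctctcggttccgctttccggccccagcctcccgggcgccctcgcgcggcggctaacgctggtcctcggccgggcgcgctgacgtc
TRAF1: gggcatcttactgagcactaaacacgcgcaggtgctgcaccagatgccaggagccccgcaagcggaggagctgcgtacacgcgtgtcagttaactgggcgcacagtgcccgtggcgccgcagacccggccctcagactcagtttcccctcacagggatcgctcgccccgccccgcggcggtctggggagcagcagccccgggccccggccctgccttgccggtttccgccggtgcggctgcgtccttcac
The BIRC3 window held 2 matches, GGAAATCCCC at 199 to 190 bases and GGAGTTCCCC at 135 to 126 bases before the start, both matching the consensus on the opposite strand. The CFLAR window held 1, GGGGAATTCC, at 97 to 88 bases before the start. CFLAR had 4 windows, and the others held no match. Neither BIRC2 nor TRAF1 had a match in any of its windows, 2 for BIRC2 and 3 for TRAF1. Over these 7 genes, 2 of 16 windows held a match, next to 9.96% of all 35116 RefSeq windows of the same length, so a match in itself is common. Windows with 2 or more matches, like that of BIRC3, made up 1.72% of all windows. Windows of BIRC2 overlap each other, as do windows of XIAP, so the 16 are not separate. A match is only a description of these letters, and no binding was measured. Any relation of the matches to the LPS changes below was not tested.

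Values are FPKM, fragments scaled to transcript length and to the fragments mapped, so levels of different genes can be set side by side, but read totals are unknown. Relative depth, an estimate from low values with Control replicate 1 set to 1, was 0.809 to 1 for Control and 0.848 to 0.859 for LPS libraries. PINT shRNA1 libraries had 0.914 to 1.05 and PINT shRNA1+LPS libraries 1.3 to 1.51. LINC-PINT, the gene of the hairpin's target, goes against the labels: it was at 1.91 to 2.88 FPKM in the 6 libraries labelled without the hairpin and at 3.54 to 5.34 in the 6 labelled with it. The groups are therefore named only by their labels, and no direction below stands for less PINT. All 6 colorectal epithelial markers were expressed in every group, but their summed level was 2032 to 2363 FPKM in the libraries labelled without the hairpin and 1230 to 1353 in those labelled with it. Leukocyte markers summed to 2.84 to 4.93 FPKM, from CD68 and LYZ mainly, with PTPRC at 0 in all 3 LPS libraries, and fibroblast and endothelial markers to 0.495 to 1.33, with CDH5 and COL3A1 at 0 in every Control and LPS library. The part of the epithelial marker difference in any result by hairpin label was not tested. In bulk RNA, fewer cells of a type and less RNA per cell cannot be told apart.

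LPS raised BIRC3 and TRAF1 in Control cells, and BIRC3 again in cells labelled with the hairpin. In LPS against Control, limma called 2 of the 8 genes, both higher, where it called 2.76% of all genes tested and 1.57% higher. Because the 8 genes were chosen with earlier results of these data known, such shares are given for scale only. A gene is called here at a Benjamini-Hochberg adjusted p under 0.05 over all tested genes. The unadjusted p this asks for differs between comparisons with the number of genes that differ. Called and not called therefore do not rank changes between comparisons. In 5 of the 8 genes all 3 LPS libraries lay above all 3 Control libraries, a pattern that 7.22% of all genes showed. In PINT shRNA1+LPS against PINT shRNA1, 1 of 8 was called, BIRC3, which was higher, where 0.186% of all genes were called and 0.163% called higher. There 3 of the 8 genes, BIRC3, TRAF1 and TRAF2, had all libraries given LPS above all others, next to 6.08% of all genes. By hairpin label the picture was mixed. In PINT shRNA1 against Control, 4 of 8 were called, BIRC3 and CFLAR lower and TRAF1 and MCL1 higher, with 27.3% of all genes called, 16.9% higher and 10.3% lower. In PINT shRNA1+LPS against LPS, 2 of 8 were called, BIRC3 and CFLAR, both lower, with 29.2% of all genes called and 11.6% called lower, so the counts by hairpin label are read against a broad difference between these libraries. Comparisons that share a group are not independent of each other. The median log2 change of the 8 genes was 0.24 in LPS against Control (all genes, -0.04), 0.22 in PINT shRNA1+LPS against PINT shRNA1 (-0.04), 0.02 in PINT shRNA1 against Control (0.06) and -0.12 in PINT shRNA1+LPS against LPS (0.05).

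**Figure D1:**
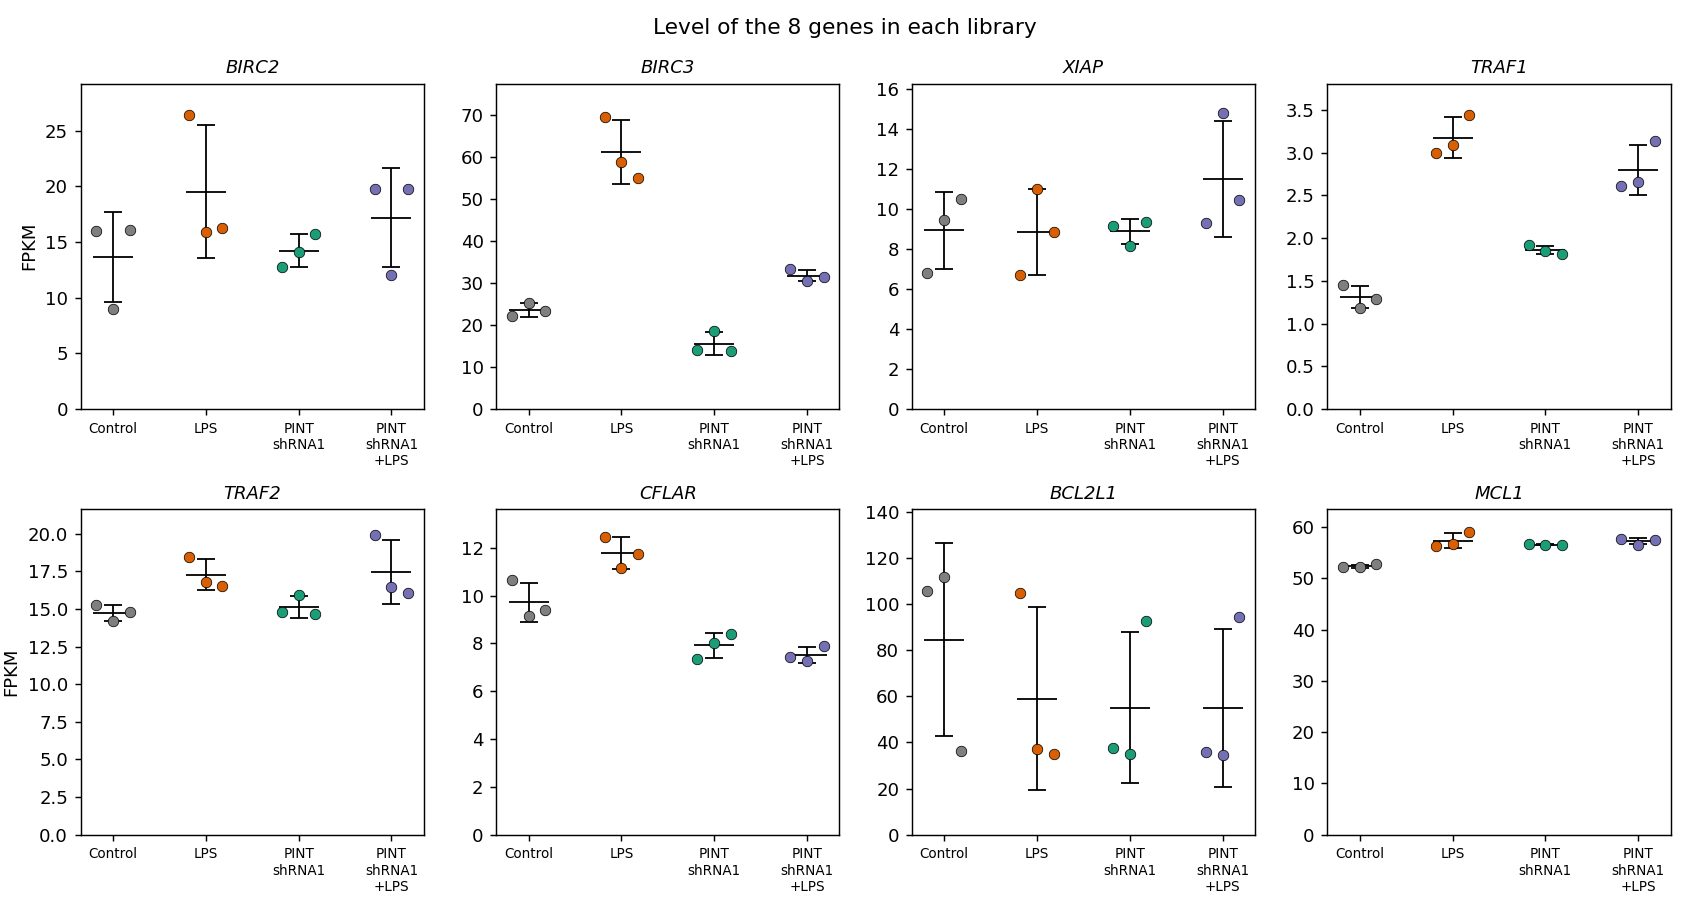
Level of each of the 8 genes in every library, in FPKM on axes that start at 0. Points are single libraries, long bars the mean and whiskers 1 SD over 3 libraries. BIRC3 and TRAF1 separate LPS from Control libraries, BCL2L1 takes low and high values within every group, and MCL1 stays between 52.1 and 58.9 FPKM.

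**Figure D2:**
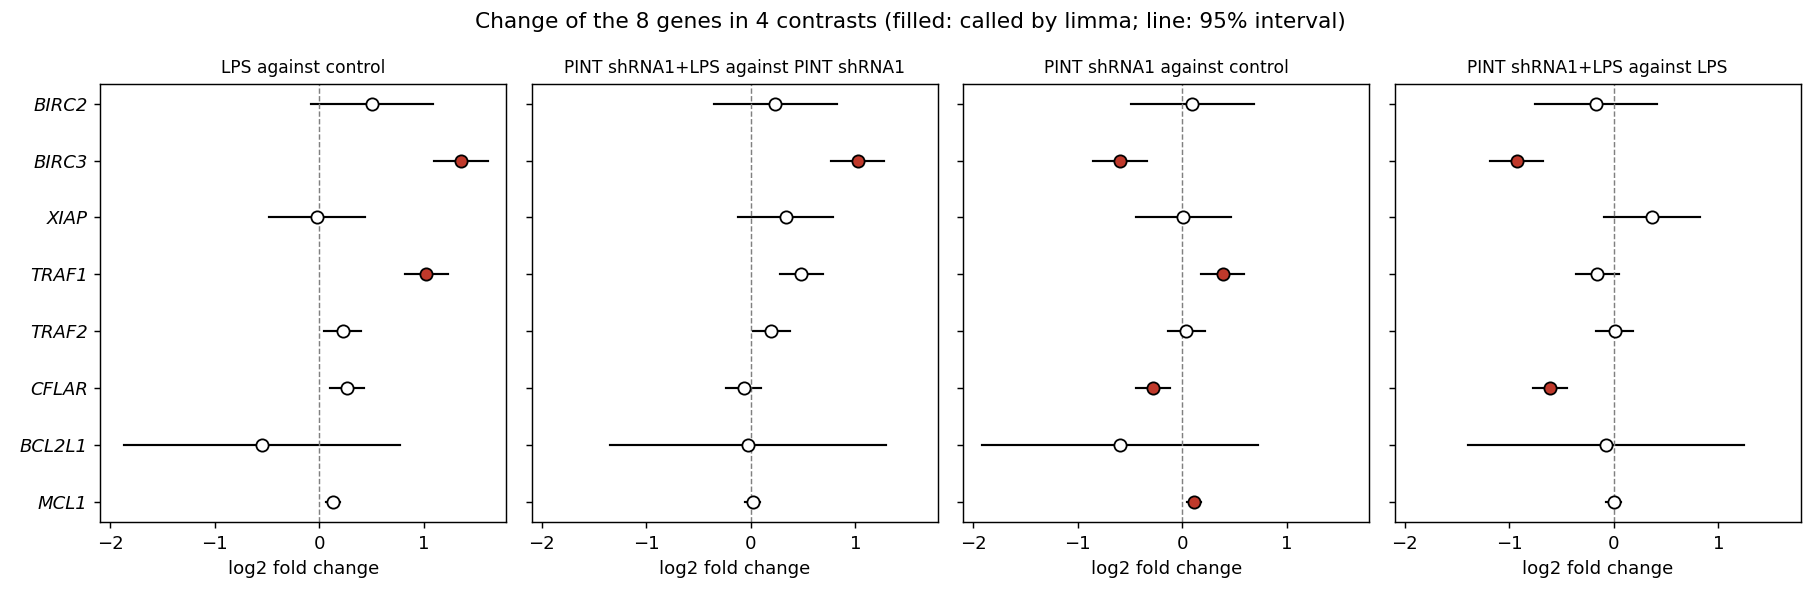
Log2 fold change of each gene on the log2(FPKM + 0.5) scale in 4 comparisons, with its 95% interval from limma. Filled points were called at an adjusted p under 0.05. BIRC3 is filled in all 4 panels, higher with LPS and lower with the hairpin label, and the intervals of BCL2L1 are the widest.

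BIRC3 (ENSG00000023445) was the IAP gene that moved most. It was at 22.1, 25.3 and 23.2 FPKM in Control and at 69.6, 58.9 and 55.0 in LPS. It was at 14.2, 18.7 and 13.8 FPKM in PINT shRNA1 and at 33.3, 30.5 and 31.5 in PINT shRNA1+LPS. The 4 groups did not overlap: PINT shRNA1 was lowest, followed by Control, PINT shRNA1+LPS and LPS. The mean thus rose 2.60-fold with LPS in Control cells, from 23.5 ± 1.62 to 61.2 ± 7.57 FPKM (SD, n = 3), with a log2 fold change of 1.35 ± 0.115 (SE; limma, adjusted p = 0.000105). In cells labelled with the hairpin it rose 2.05-fold, from 15.5 ± 2.73 to 31.8 ± 1.40 FPKM, with a log2 fold change of 1.02 ± 0.115 (limma, adjusted p = 0.00557). Against the matching group without the hairpin, BIRC3 was at 0.660 of the mean without LPS (log2 fold change -0.60 ± 0.115; limma, adjusted p = 0.00342) and at 0.520 of it with LPS (-0.93 ± 0.115; limma, adjusted p = 0.000201). The calls of BIRC3 held in all 23 alternative analyses of each of these comparisons.

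BIRC2 (ENSG00000110330), which lies beside BIRC3 on chromosome 11, was not called in any comparison. It was at 16.0, 9.0 and 16.1 FPKM in Control and 26.5, 15.9 and 16.3 in LPS. It was at 12.8, 14.1 and 15.8 FPKM in PINT shRNA1 and 19.8, 12.1 and 19.8 in PINT shRNA1+LPS. The groups overlapped in every comparison, with Control replicate 2 the lowest library and LPS replicate 1 the highest. Its log2 fold change with LPS was 0.50 ± 0.265 in Control cells (95% interval -0.08 to 1.09; limma, adjusted p = 0.374). By hairpin label its log2 fold change was 0.10 ± 0.265 without LPS and -0.17 ± 0.265 with it (limma, adjusted p = 0.823 and 0.671).

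XIAP (ENSG00000101966) was likewise not called in any comparison. It was at 6.80, 9.45 and 10.5 FPKM in Control and 6.67, 11.0 and 8.83 in LPS. It was at 9.15, 8.14 and 9.32 FPKM in PINT shRNA1 and 9.29, 14.8 and 10.4 in PINT shRNA1+LPS. The groups overlapped, and PINT shRNA1+LPS replicate 2 was the highest library. Its log2 fold change with LPS was -0.02 ± 0.208 in Control cells (95% interval -0.48 to 0.44; limma, adjusted p = 0.977) and 0.33 ± 0.208 in cells labelled with the hairpin (limma, adjusted p = 0.704). An antisense gene, XIAP-AS1, overlaps XIAP in GENCODE 29, and whether the counting used the strand is not given in the sources used here.

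The share of BIRC3 among the 3 IAP genes was computed for each library and was not tested. BIRC3 made up 49.2%, 57.8% and 46.7% of the summed FPKM of BIRC2, BIRC3 and XIAP in Control and 67.8%, 68.7% and 68.7% in LPS. In cells labelled with the hairpin its share was 39.2%, 45.6% and 35.4% without LPS and 53.4%, 53.2% and 51.0% with it. In both kinds of cells every library given LPS had a higher share than every library not given it. The ratio of BIRC3 to BIRC2, which does not depend on how a library is scaled, was 1.38, 2.81 and 1.45 in Control and 2.63, 3.71 and 3.38 in LPS. The highest Control library, replicate 2, lies above the lowest LPS library and is the one with the low BIRC2 level. The log2 ratio was higher by 0.85 in LPS than in Control (two-sided exact permutation test, p = 0.2). In cells labelled with the hairpin the ratio was 1.11, 1.32 and 0.872 without LPS and 1.68, 2.53 and 1.59 with it, a difference of 0.80 on the log2 scale without overlap (two-sided exact permutation test, p = 0.1, the smallest that 3 against 3 libraries can give).

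**Figure D3:**
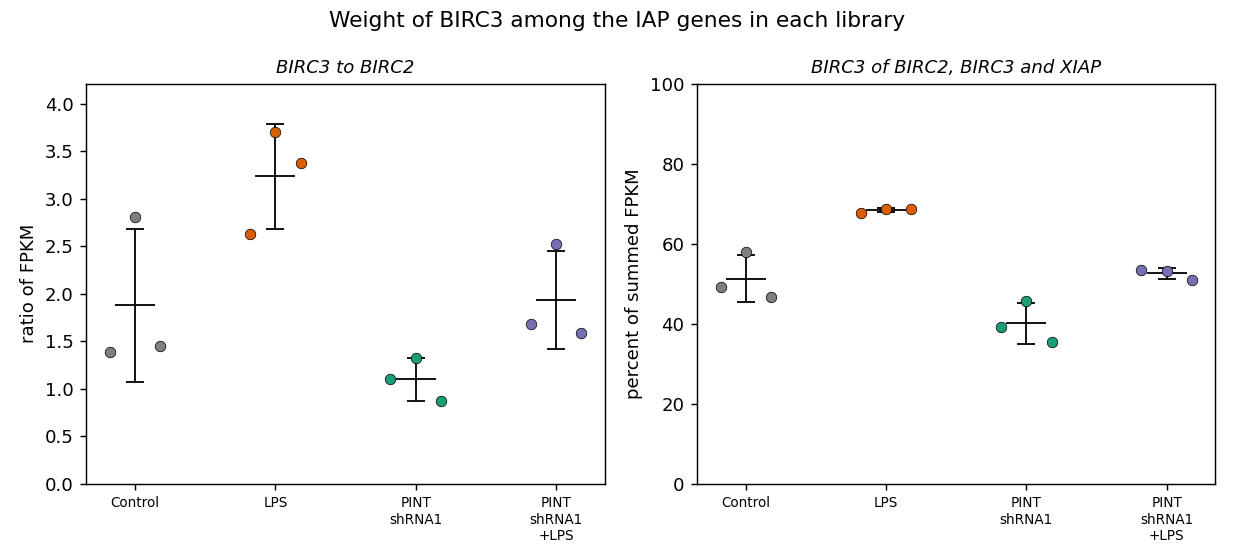
Left, the ratio of BIRC3 to BIRC2 FPKM; right, BIRC3 as a percent of the summed FPKM of BIRC2, BIRC3 and XIAP. Points are single libraries, long bars the mean and whiskers 1 SD over 3 libraries. The BIRC3 share is 67.8% to 68.7% in LPS, above all other groups.

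TRAF1 (ENSG00000056558) was the lowest of the 8 genes in every group and the other one that rose with LPS in Control cells. It was at 1.45, 1.19 and 1.29 FPKM in Control and 2.99, 3.09 and 3.45 in LPS. It was at 1.92, 1.86 and 1.82 FPKM in PINT shRNA1 and 2.61, 2.66 and 3.14 in PINT shRNA1+LPS. Control libraries were lowest, PINT shRNA1 libraries came next without overlap, and the groups given LPS overlapped at the top. The mean rose 2.43-fold with LPS in Control cells, from 1.31 ± 0.132 to 3.18 ± 0.240 FPKM (log2 fold change 1.02 ± 0.0929; limma, adjusted p = 0.000166). In cells labelled with the hairpin the LPS mean was 1.51 times that without LPS, and the log2 fold change of 0.48 ± 0.0929 was not called (limma, adjusted p = 0.0973), although the libraries did not overlap. Without LPS TRAF1 was higher by hairpin label, 1.42-fold (log2 fold change 0.39 ± 0.0929; limma, adjusted p = 0.0108). The uncalled LPS change in cells labelled with the hairpin was larger than this called one. Its unadjusted p was also smaller (limma, 0.000333 against 0.00166). With LPS the log2 difference of TRAF1 by hairpin label was -0.16 ± 0.0929 (95% interval -0.36 to 0.05; limma, adjusted p = 0.240). TRAF1 and BIRC3 thus stood on opposite sides of Control in the PINT shRNA1 libraries. These log2 values include the 0.5 FPKM added to each value, which understates the change of a gene as low as TRAF1.

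TRAF2 (ENSG00000127191) lay in a narrow range. It was at 15.3, 14.2 and 14.8 FPKM in Control and 18.5, 16.8 and 16.6 in LPS. It was at 14.8, 16.0 and 14.7 FPKM in PINT shRNA1 and 19.9, 16.4 and 16.1 in PINT shRNA1+LPS. Libraries given LPS lay above the matching libraries without it in both kinds of cells. Neither difference was called: the log2 fold change was 0.22 ± 0.0802 in Control cells and 0.20 ± 0.0802 in cells labelled with the hairpin (limma, adjusted p = 0.189 and 0.516). By hairpin label the log2 difference was 0.04 ± 0.0802 without LPS and 0.01 ± 0.0802 with it (limma, adjusted p = 0.773 and 0.939), and both turned negative under median scaling.

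CFLAR (ENSG00000003402) was lower by hairpin label both without and with LPS. It was at 10.7, 9.14 and 9.39 FPKM in Control and 12.5, 11.1 and 11.7 in LPS. It was at 7.37, 8.01 and 8.39 FPKM in PINT shRNA1 and 7.43, 7.26 and 7.90 in PINT shRNA1+LPS. All 6 libraries labelled with the hairpin lay below all 6 labelled without it. The share of all genes with that pattern was not computed. By hairpin label 10.3% of all genes were called lower without LPS and 11.6% with it. With LPS the CFLAR mean was 0.639 of that without the hairpin, 7.53 ± 0.333 against 11.8 ± 0.661 FPKM (log2 fold change -0.61 ± 0.0746; limma, adjusted p = 0.000176). Without LPS it was at 0.815, 7.92 ± 0.518 against 9.73 ± 0.815 FPKM (log2 fold change -0.28 ± 0.0746; limma, adjusted p = 0.0182). That second call was lost without Control replicate 1 (-0.21; limma, adjusted p = 0.0644), without PINT shRNA1 replicate 1 (-0.23; limma, adjusted p = 0.0691) and when only the groups compared were fitted (limma, adjusted p = 0.0605). LPS libraries lay above Control libraries, but the log2 fold change of 0.26 ± 0.0746 was not called (limma, adjusted p = 0.0965), and in cells labelled with the hairpin it was -0.07 ± 0.0746 (limma, adjusted p = 0.839). The LPS difference in Control cells was close in size to that by hairpin label without LPS. Their unadjusted p-values were close too (limma, 0.00473 and 0.00342). CFLAR-AS1, an antisense gene, overlaps CFLAR in GENCODE 29.

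BCL2L1 (ENSG00000171552) took values at separate levels that did not follow the groups. It was at 105, 112 and 36.3 FPKM in Control and 105, 36.9 and 35.1 in LPS. It was at 37.6, 35.1 and 92.6 FPKM in PINT shRNA1 and 35.7, 34.3 and 94.4 in PINT shRNA1+LPS. In 7 libraries it lay between 34.3 and 37.6 FPKM and in the other 5 between 92.6 and 112, with a 2.46-fold gap and no library between. The higher level was found in 2 of 3 Control libraries and in 1 of 3 libraries of each other group. Its pooled SD within groups, 0.848 on the log2 scale, was larger than that of 99.4% of all genes tested. Among the 6152 genes averaging 10 FPKM or more, 4.19% had a group whose highest library was at least 2 times its lowest. BCL2L1 was called in no comparison: LPS against Control gave a log2 fold change of -0.55 ± 0.598 (95% interval -1.87 to 0.77; limma, adjusted p = 0.699), and PINT shRNA1 against Control gave -0.60 ± 0.598 (limma, adjusted p = 0.503). Changes smaller than these intervals were not detectable here. Antisense genes AL117381.1 and ABALON overlap BCL2L1 in GENCODE 29, where COX4I2 and TPX2 are the neighbouring coding genes. TPX2, a spindle protein gene, stayed between 116 and 136 FPKM in all 12 libraries, and COX4I2 was at 0 in each. Any part of overlapping or neighbouring genes in the BCL2L1 values was not tested.

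MCL1 (ENSG00000143384) was the opposite case, with the closest agreement between libraries among the 8 genes. It was at 52.1, 52.1 and 52.7 FPKM in Control and 56.2, 56.7 and 58.9 in LPS. It was at 56.6, 56.5 and 56.5 FPKM in PINT shRNA1 and 57.7, 56.5 and 57.6 in PINT shRNA1+LPS. Control libraries were below all 9 others, and the other groups lay close together. Only 0.145% of all genes tested had a smaller SD within groups. PINT shRNA1 against Control was called at 1.08-fold (log2 fold change 0.11 ± 0.0317; limma, adjusted p = 0.0248), a call that was lost in 9 of 23 alternative analyses, median scaling and quantile normalization among them. LPS against Control, at 0.13 ± 0.0317, was not called (limma, adjusted p = 0.0603), and it was called under median scaling, with no filter on low values and with a filter at 1 FPKM. Without adjustment its p was smaller than that of the called difference by hairpin label (limma, 0.0019 against 0.00517). In PINT shRNA1+LPS against PINT shRNA1 the log2 difference was 0.02 ± 0.0317 (limma, adjusted p = 0.910).

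**Figure D4:**
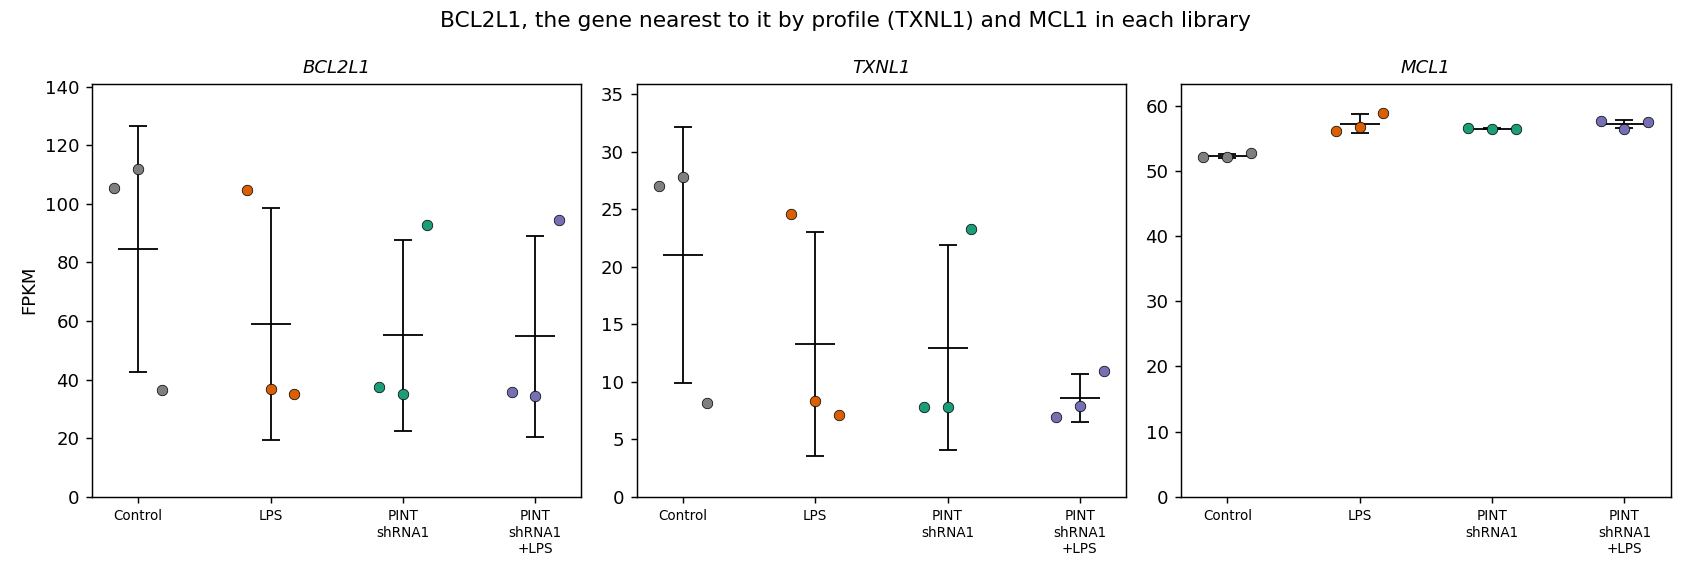
BCL2L1, TXNL1 (the gene with the nearest profile to it) and MCL1 in every library, in FPKM on axes that start at 0. Points are single libraries, long bars the mean and whiskers 1 SD over 3 libraries. BCL2L1 is at 34.3 to 37.6 or at 92.6 to 112 FPKM in each group, while MCL1 varies little.

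The difference between the LPS responses of cells with and without the hairpin label was tested as an interaction. Limma called none of the 8 genes, where it called 0.128% of all genes, and 3 of the 8 had an unadjusted p under 0.05, as did 7.74% of all genes. The 3 were TRAF1, at -0.54 ± 0.131 (limma, adjusted p = 0.268), CFLAR, at -0.33 ± 0.106 (limma, adjusted p = 0.461), and MCL1, at -0.11 ± 0.0448 (limma, adjusted p = 0.595). The negative sign means a smaller log2 response to LPS in cells labelled with the hairpin. For BIRC3 the log2 difference of responses was -0.33 ± 0.163 (95% interval -0.69 to 0.03; limma, adjusted p = 0.674), so its response is not shown to differ between the cells.

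By level per transcript length, BCL2L1 and MCL1 headed the 8 genes in Control, at 84.5 ± 41.9 and 52.3 ± 0.345 FPKM, and their libraries overlapped. BIRC3 followed without overlap, and TRAF2, BIRC2, CFLAR and XIAP, with means from 14.7 down to 8.92 FPKM, overlapped each with the next. In LPS the mean of BIRC3 was 61.2 FPKM, that of BCL2L1 59.0 ± 39.7 and that of MCL1 57.3 ± 1.45, and these overlapped in that order. The mean of BCL2L1 stands for no single library. It was at 105 FPKM in LPS replicate 1, above BIRC3, and at 36.9 and 35.1 in replicates 2 and 3, below BIRC3. In PINT shRNA1, BIRC3 overlapped with TRAF2 and stood clear of BCL2L1. TRAF1 was below every other member in every library of each group.

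Other genes of the same pathways were read from fixed lists of 49 genes, of which 42 passed the filter. The lists too were chosen with earlier results of these data known, so shares of all genes are for scale only. With LPS in Control cells 4 of the 42 rose and none fell, where 1.57% of all genes were called higher and 2.76% called in either direction. TRAF3, an adaptor that restrains non-canonical NF-kB signalling, rose from 18.6 ± 0.439 to 23.7 ± 0.110 FPKM (0.34 ± 0.0381; limma, adjusted p = 0.0007). CYLD, a deubiquitinase that restrains NF-kB, rose by 0.35 ± 0.0709 (limma, adjusted p = 0.0267), and the proapoptotic BH3-only genes BIK and BID by 0.44 ± 0.0725 and 0.27 ± 0.0585 (limma, adjusted p = 0.00938 and 0.0364). The calls of BID and CYLD were lost in 13 and 7 of 23 alternative analyses, BIK in 1 and TRAF3 in none. In cells labelled with the hairpin limma called none of the 42 with LPS or for the interaction, where it called 0.186% and 0.128% of all genes. At an unadjusted p under 0.05 there were 6 of the 42 in either test, next to 8.76% of all genes with LPS and 7.74% for the interaction. These lists held 3 tested other IAP genes, 5 other TRAF genes, 3 BCL2 effectors, 7 BH3-only genes, 7 caspases, 2 IAP antagonists, 14 partners of the TNF receptor complex and 1 other antiapoptotic BCL2 gene. BCL2 itself, BCL2A1 and BCL2L10 were below the filter, as were BIRC7, BIRC8, HRK and XAF1, so BCL2L1, MCL1 and BCL2L2 were the antiapoptotic BCL2 genes tested. BCL2 was at 0.213 to 0.452 FPKM over the 12 libraries.

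By hairpin label 9 of the 42 rose and 1 fell without LPS, and 12 rose and 5 fell with it, shares to be read against the 27.3% and 29.2% of all genes called. Without LPS 16.9% of all genes were called higher and 10.3% lower. With LPS 3039 of all 17214 genes were called higher and 11.6% lower. Counts within a list below are to be read against the same shares. DIABLO, which encodes the mitochondrial protein that displaces caspases from IAPs, rose by 0.79 ± 0.142 without LPS, from 12.8 ± 1.38 to 22.4 ± 0.724 FPKM, and by 0.55 ± 0.142 with LPS (limma, adjusted p = 0.00219 and 0.0141). The second of these was lost without LPS replicate 2 or LPS replicate 3. BIK rose by 0.71 ± 0.0725 and 0.68 ± 0.0725 and BMF, another BH3-only gene, by 0.63 ± 0.147 and 0.73 ± 0.147, without and with LPS, while the caspase gene CASP6 fell by 0.43 ± 0.0498 and 0.36 ± 0.0498. The largest limma adjusted p among these 6 values was 0.00917. Without LPS, 4 of 14 receptor complex partners rose, among them TAB3, TNFRSF1B and FADD by 0.20 ± 0.0496, 0.19 ± 0.0473 and 0.21 ± 0.0584. Those calls were lost in 2, 3 and 5 of 23 alternative analyses. With LPS, 4 of the 14 rose and 2 fell, the kinase gene RIPK1 by 0.41 ± 0.0929 and CYLD by 0.41 ± 0.0709, while TNFRSF1B rose by 0.23 ± 0.0473 (limma, adjusted p = 0.00685, 0.00157 and 0.00405). Also with LPS, TRAF3 fell by 0.21 ± 0.0381, TRAF7 rose by 0.32 ± 0.0653, the effector BAX by 0.38 ± 0.093 and the IAP BIRC5 (survivin), known for its role in cell division, by 0.47 ± 0.151 (limma, adjusted p = 0.00209, 0.00445, 0.0116 and 0.0389). The BIRC5 call was lost in 11 of 23 alternative analyses.

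The genes with the profiles nearest to those of BIRC3, TRAF1 and BCL2L1, the 3 members with the widest span of group means, were found by the root mean square difference of centred log2 values over the 12 libraries, among 12456 genes. Nearest to BIRC3 were ICAM1, a leukocyte adhesion molecule, at 0.186, SDC4, a heparan sulfate proteoglycan, at 0.211 and ICOSLG, a costimulatory ligand, at 0.215, where BIRC3 itself departs from its own mean by 0.722. ICAM1 averaged 26.4 ± 1.27 FPKM for PINT shRNA1, 35.8 ± 1.61 for Control, 43.5 ± 2.59 for PINT shRNA1+LPS and 100.6 ± 2.31 for LPS, the same order of groups as BIRC3. Nearest to TRAF1 were TNFRSF9, a costimulatory receptor of the TNF receptor family, at 0.123, OXTR, the oxytocin receptor, at 0.139 and EGFR, the epidermal growth factor receptor, at 0.153, where TRAF1 departs from its mean by 0.411. TNFRSF9 averaged 4.53 ± 0.505 FPKM for Control, 7.02 ± 0.0875 for PINT shRNA1, 9.29 ± 0.440 for PINT shRNA1+LPS and 9.81 ± 0.611 for LPS. Like TRAF1, it was lowest in Control and higher in PINT shRNA1. ICAM1 and TNFRSF9 were picked for profiles close to BIRC3 and TRAF1, so this likeness follows from the search.

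**Figure D5:**
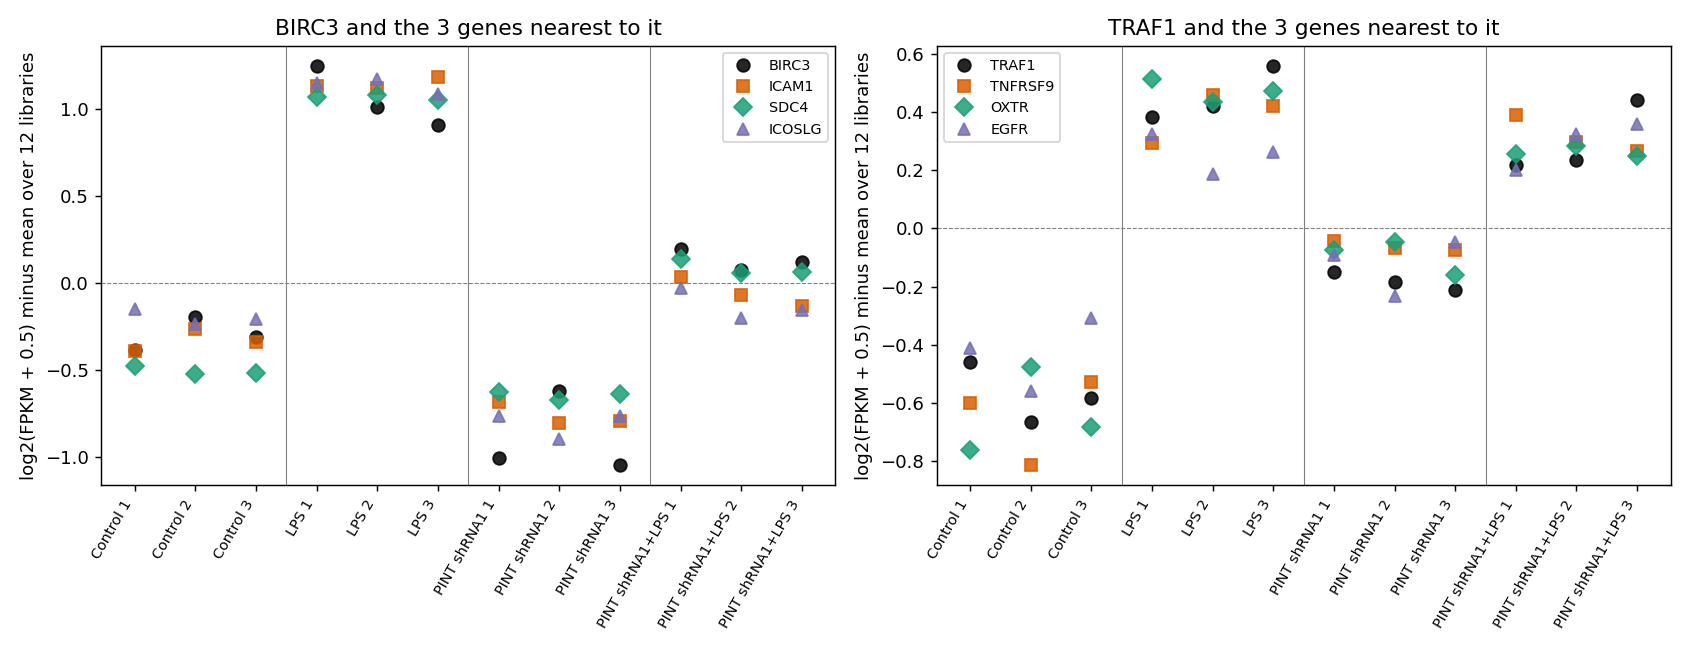
Log2(FPKM + 0.5) minus its mean over the 12 libraries for BIRC3 (left) and TRAF1 (right), each with the 3 genes nearest to it. Each point is 1 library. The BIRC3 set is lowest in PINT shRNA1 and the TRAF1 set lowest in Control.

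Nearest to BCL2L1 was TXNL1, a thioredoxin-like protein gene, at 0.284 and the third was DOK7, an adaptor of the muscle receptor kinase, at 0.519, where BCL2L1 departs from its mean by 0.738. TXNL1 was at 27.0, 27.8 and 8.13 FPKM in Control and 24.5, 8.31 and 7.10 in LPS. It was at 7.83, 7.77 and 23.3 FPKM in PINT shRNA1 and 6.97, 7.89 and 10.9 in PINT shRNA1+LPS. The 5 libraries with high BCL2L1 were the 5 with the highest TXNL1, although in PINT shRNA1+LPS replicate 3 TXNL1 reached only 10.9 FPKM. TXNL1 was picked for its likeness to BCL2L1, so this agreement follows from the search.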

How the data were processed

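Expression was read from 12 SW480 libraries in 4 groups of 3. The deposited values are FPKM per Ensembl gene, made by the authors. Per the submitters' processing notes, the tools were HISAT2 2.1.0, fastp and StringTie 1.3.4d, with no role given, on build GRCh37 (hg19). In the labels each of the 3 PINT shRNA1 RNA numbers has 2 samples, while the deposited file has 1 column for each, and which sample that column holds is not recorded. Another 6 columns were not used. Counting error cannot be given from FPKM. Relative depth was the most frequent ratio between Control replicate 1 and a library among values between 0.01 and 0.3 FPKM. That ratio made up only 0.484% to 0.909% of such ratios in the other libraries, so depth is an estimate.

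A gene was tested when 3 or more libraries reached 0.5 FPKM. Values were taken as log2(FPKM + 0.5) and fitted in limma 3.58.1 (R 4.3.3) with 1 mean per group over all 12 libraries and an intensity trend, two-sided, with Benjamini-Hochberg adjustment over all genes tested in a comparison. The fit was checked on simulated data, with changes added only to genes above the median level and outside the most variable. Those changes were larger than the ones given for MCL1, CFLAR and TRAF2. The check therefore does not cover changes that small or genes as variable as BCL2L1. The text names the 8 genes, LINC-PINT, up to 3 called genes with the smallest p of each other list, and the 3 nearest profiles (among genes averaging 1 FPKM or more) for the 3 members with the widest span of group means. BCL2, BCL2A1, BCL2L10, BIRC7, BIRC8, HRK, XAF1, COX4I2 and TPX2 fall outside this rule and were picked once their values were known. Some genes chosen this way are left out of the text. The members and lists were chosen with earlier results of these data known. Overlapping genes come from GENCODE 29, of another build, and promoters from RefSeq.

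Alternatives were scaling to a common median or total, quantile normalization, a pseudocount of 0.1 or 1, a filter at 1 FPKM or none, moderation without the intensity trend or robust, a replicate block, a fit of only the groups compared and leaving out each library.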

Additional observations from a re-analysis of the deposited data

How the results depend on the processing

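The calls of BIRC3 in the 4 comparisons, of TRAF1 in LPS against Control and PINT shRNA1 against Control, and of CFLAR in PINT shRNA1+LPS against LPS held in every alternative run. Of the 8 genes, 4 were called in PINT shRNA1 against Control, 2 when only the groups compared were fitted, and 2 to 4 when 1 library was left out. In PINT shRNA1+LPS against PINT shRNA1, quantile normalization called 2 of 8 in place of 1, adding TRAF1 (limma, adjusted p = 0.0435, with a range of 0.0435 to 0.282 over the alternatives). Deviations of same-numbered libraries correlated by -0.048 to 0.057 in 18 pairs, and those of other-numbered libraries by -0.058 to 0.046 in 36 pairs. No strong shared effect of the replicate number was seen, which does not show whether same-numbered libraries were prepared together. The replicate block lowered the genes called from 475 to 311 in LPS against Control, from 32 to 17 in PINT shRNA1+LPS against PINT shRNA1 and from 22 to 14 for the interaction, changed no call of the 8 genes and ended the calls of BID and CYLD in LPS against Control. Over all alternatives, the other-gene lists had 1 to 4 called higher and 0 to 1 lower in LPS against Control, 5 to 11 and 1 to 2 in PINT shRNA1 against Control, 8 to 12 and 5 in PINT shRNA1+LPS against LPS, and 0 to 2 higher in PINT shRNA1+LPS against PINT shRNA1. LPS against Control called 127 genes when only its groups were fitted and 293 to 412 leaving out 1 library, with the lowest counts without LPS replicate 3 (293) and Control replicate 2 (295). PINT shRNA1+LPS against PINT shRNA1 called 59 genes with median scaling, 57 with quantile normalization, 18 with no intensity trend and 19 to 40 leaving out 1 library, with 19 without PINT shRNA1 replicate 1 and 20 without PINT shRNA1 replicate 2. The interaction called 17 to 26 leaving out 1 library. The causes were not tested. The split of higher to lower calls moved with scaling: 271 to 204 as deposited, 440 to 116 with median scaling and 299 to 128 with quantile normalization in LPS against Control; 2913 to 1780, 2215 to 2151 and 2263 to 2204 in PINT shRNA1 against Control; and 3039 to 1994, 2349 to 2530 and 2561 to 2361 in PINT shRNA1+LPS against LPS.

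Some log2 changes that were not called turned sign. With median scaling these were XIAP in LPS against Control (0.033) and in PINT shRNA1 against Control (-0.033), TRAF2 in PINT shRNA1 against Control (-0.0073) and in PINT shRNA1+LPS against LPS (-0.043), and BCL2L1 in PINT shRNA1+LPS against PINT shRNA1 (0.016). With quantile normalization they were XIAP (0.011 and -0.025) and TRAF2 in PINT shRNA1+LPS against LPS (-0.017), and with a common total MCL1 in that comparison (0.018). Leaving out 1 library gave ranges across 0. In LPS against Control XIAP ranged from -0.19 to 0.16. In PINT shRNA1 against Control the ranges were -0.17 to 0.23 for BIRC2, -0.16 to 0.13 for XIAP and -2.7e-05 to 0.061 for TRAF2. In PINT shRNA1+LPS against LPS they were -0.30 to 0.062 for BIRC2, -0.085 to 0.066 for TRAF2, -0.55 to 0.43 for BCL2L1 and -0.014 to 0.020 for MCL1. In PINT shRNA1+LPS against PINT shRNA1 BCL2L1 ranged from -0.50 to 0.42, and in the interaction TRAF2 from -0.12 to 0.029.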

Other observations

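A pair of other BCL2-family genes also varied widely between libraries. BCL2L2 (BCL-W), an antiapoptotic relative of BCL2L1, was at 3.15, 3.89 and 2.17 FPKM in Control and 10.9, 2.87 and 2.40 in LPS. It was at 11.2, 10.8 and 10.4 FPKM in PINT shRNA1 and 5.23, 9.83 and 1.91 in PINT shRNA1+LPS. Its libraries in PINT shRNA1 lay close together and above Control, and limma called that difference (1.69 ± 0.551, adjusted p = 0.0423), a call lost in 9 of 23 alternative analyses. In GENCODE 29 the readthrough gene BCL2L2-PABPN1 overlaps BCL2L2 on the same strand, and how the counting divided reads between them is not given in the sources used here, so its values are uncertain.

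PMAIP1 (NOXA), the BH3-only gene whose protein binds MCL1, was at 27.7, 13.8 and 25.3 FPKM in Control and 35.9, 36.5 and 20.8 in LPS. It was at 14.9, 13.8 and 14.3 FPKM in PINT shRNA1 and 7.49, 7.14 and 16.9 in PINT shRNA1+LPS. With LPS it was lower by hairpin label without overlap (-1.58 ± 0.343; limma, adjusted p = 0.00575), and that call held in the 23 alternative analyses. The log2 difference of MCL1 between the same groups was -0.00054 ± 0.0317 (limma, adjusted p = 0.993).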
